A study of Drosophila melanogaster with 2 samples.

Results

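The genes described here encode the proteins of the small subunit of the cytosolic ribosome. They were the protein-coding genes whose symbol begins with RpS in the fly annotation, with the mitochondrial mRpS genes left out, and there were 38 of them among 13968 protein-coding genes. Membership rested on symbols and used no measured value, but the rule was set with earlier results of these data known. The rule took in RpS28-like, a gene named for its likeness to RpS28, and left out sta, the fly gene for the small-subunit protein RpSA, whose symbol begins otherwise.

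Atf6 binding was mapped by chromatin immunoprecipitation and sequencing (ChIP-seq) in whole Drosophila melanogaster embryos of 0 to 24 h. All embryos carried a transgene, inserted to target Atf6, for a fusion of Atf6 with enhanced green fluorescent protein (eGFP), and an antibody against GFP was used for the precipitation. There was 1 group of 2 biological replicates and no other genotype, age or treatment. No comparison between conditions was therefore possible, and the values below describe where the fusion protein was found. Which promoter drives the fusion is not given in the sources used here. A whole embryo mixes all tissues and stages, so binding in few cells and weak binding in many cannot be told apart. No defining marker of embryonic tissue could be checked, since the peak lists hold no expression.

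The small ribosomal subunit reads the messenger RNA. It carries the decoding centre, made of ribosomal RNA with proteins such as RpS23 around it, and is divided into a head and a body with a platform. Its proteins are needed in near-equal amounts by every growing cell, and in flies the loss of 1 copy of many of these genes slows growth, the Minute phenotype. Fly ribosomal protein genes often start within a pyrimidine run called the TCT initiator. Atf6 is a basic leucine zipper (bZIP) protein of the endoplasmic reticulum membrane. In vertebrates it is cut free during stress and binds the ER stress response element, whose sequence ends in CCACG.

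Atf6-eGFP peaks lay at most promoters of the small-subunit genes. In the authors' thresholded list of both replicates, called the main list here, 27 of 38 genes (71.1%, 95% Wilson interval 55.2 to 83.0) had a peak summit within 500 bp of a transcription start site (TSS) of the gene. The same held for 21.6% of all protein-coding genes (3019 of 13968). Among the large-subunit RpL genes it was 40 of 54 (74.1%, 61.1 to 83.9), and among the mitochondrial small-subunit genes it was 10 of 26 (38.5%, 22.4 to 57.5). The interval of the small-subunit genes overlapped those of both other families in this list. In the list of replicate 2 it did not overlap that of the mitochondrial genes (47.3 to 76.6 against 11.0 to 42.1). These 2 intervals did overlap in the list of replicate 1 (42.2 to 72.1 against 25.5 to 61.1). They also overlapped in the stricter list described below (52.5 to 80.9 against 19.4 to 53.8). Intervals cover counting error only.

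The main list held 5846 peaks, the lists of replicates 1 and 2 held 4249 and 3424, and a stricter list named conservative held 4884. Every peak carries a signal, which is a score set by the authors on a scale that the sources used here do not give. It is compared within 1 list only, and its median over the main list was 101.8. The number of reads behind the lists is unknown. The control was not used here.

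The strongest small-subunit peaks lay at RpS27, RpS25 and RpS20, and their summit sequences are shown because they set the upper end of the family. RpS27 encodes a zinc-binding protein of the body, RpS25 a head protein known for its part in cap-independent initiation, and RpS20 a head protein. The peaks were at chr3R:25247396-25247623 for RpS27, chr3R:11216157-11216552 for RpS25 and chr3R:20821921-20822117 for RpS20 on the dm6 build. The sequences below are RefSeq's Release 6 genome, on the coding strand of the gene, 5′ to 3′. Those of RpS25 and RpS20 run from 50 bases before the summit to 50 after it, and that of RpS27 ends 35 bases earlier. Capitals mark the Dref site TATCGATA and, run together, GGTATTT and the reverse complement of TATAAAA.
RpS27 (chr3R:25247485-25247550, minus strand): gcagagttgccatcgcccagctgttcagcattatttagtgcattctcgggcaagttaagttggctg
RpS25 (chr3R:11216305-11216405, minus strand): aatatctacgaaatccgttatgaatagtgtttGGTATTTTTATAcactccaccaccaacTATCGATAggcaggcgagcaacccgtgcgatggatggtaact
RpS20 (chr3R:20821974-20822074, plus strand): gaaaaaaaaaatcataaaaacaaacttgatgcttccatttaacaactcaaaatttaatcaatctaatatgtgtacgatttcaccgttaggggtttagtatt
Only the RpS25 window held any of the 9 words searched at summits. GC content over the full 101 bases was 42.6% at RpS25 and 26.7% at RpS20.

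A second set of sequences is shown for a run of 16 bases that 3 promoters of the family share. It was found by searching the member promoters, from 250 bases before to 50 after the canonical start, for runs of 14 bases present in 3 or more of them, and by lengthening the run found as far as the 3 promoters had the same base. RpS19a encodes a head protein whose human counterpart is mutated in Diamond-Blackfan anaemia, RpS21 encodes a body protein whose loss causes tissue overgrowth in fly larvae, and RpS28b encodes a head protein near the messenger RNA. The run, in capitals, lay on the coding strand in each, and the sequences start 60 bases before the canonical TSS.
RpS19a (chrX:16637834-16637913, plus strand): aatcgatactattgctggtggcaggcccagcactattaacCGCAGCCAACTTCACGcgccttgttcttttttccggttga
RpS21 (chr2L:2856051-2856099, plus strand): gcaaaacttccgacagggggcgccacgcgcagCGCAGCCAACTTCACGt
RpS28b (chrX:9554563-9554642, plus strand): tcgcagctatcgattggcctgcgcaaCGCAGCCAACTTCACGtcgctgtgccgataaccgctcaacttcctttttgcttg
The run was present in exactly these 3 of 13967 promoters. Counting the start as base 1, it lay from -20 to -5 of the canonical TSS in RpS19a, from -28 to -13 in RpS21 and from -34 to -19 in RpS28b. RpS21 has a further annotated start at chr2L:2856070, and its run (chr2L:2856083-2856098) lies downstream of that start. The main-list summit fell inside the run at RpS21 and RpS28b and 13 bp from it at RpS19a. The replicates' own summits placed otherwise. At RpS21 (chr2L:2856078 in replicate 1, chr2L:2856009 in replicate 2) both lay outside the run. So did both at RpS28b (chrX:9554567 and chrX:9554639, run at chrX:9554589-9554604). At RpS19a the summit of replicate 1 (chrX:16637876) lay inside the run (chrX:16637874-16637889) and that of replicate 2 (chrX:16637890) just past it. The run was noticed in these sequences and was not tested.

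The 27 genes had a median signal of 136.5, from 72.0 to 365.9. The median over all promoter-bound protein-coding genes was 124.3. Of the 27 members, 22 exceeded the median peak of the main list, 101.8. That median peak lies below the 124.3 of all bound genes, so most bound genes exceeded it too. Main-list peaks above it gave a promoter peak to 13.6% of all protein-coding genes, against 21.6% for the whole list. Within the ranking of promoter-bound genes the median member stood at percentile 56.5. The direction turned in the replicates' own lists, where the median member stood at percentile 44.8 in replicate 1 and 41.9 in replicate 2. Median signals there were 77.5 for members against 85.1 for all bound genes in replicate 1, and 69.8 against 77.9 in replicate 2. In the main list the strongest, RpS27, ranked 377 of 5846, so the family held none of the very top peaks.

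**Figure D1:**
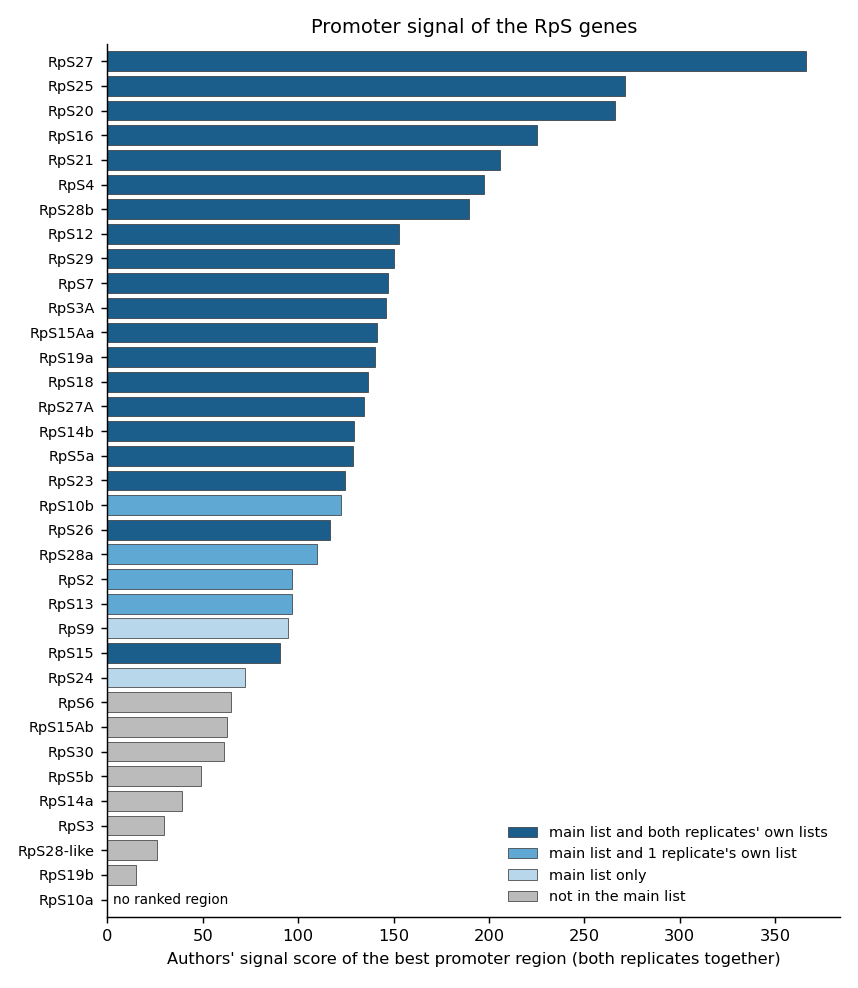
Authors' signal score of the best promoter region of each of 35 small-subunit genes, from the lists of both replicates together, with 1 bar per gene. Shades give the lists that hold the peak, and grey bars are ranked regions that missed the threshold. RpS27 stood highest at 365.9 and the grey bars reached at most 64.8.

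Proteins of the head came from 19 genes, of which 13 had a main-list peak and 11 were also in both replicates' own lists. Over all protein-coding genes 21.6% had a main-list peak and 11.4% were in both replicates' lists. RpS25 had a signal of 271.1 in the main list, 150.6 in replicate 1 and 124.0 in replicate 2. RpS20 had 266.2, 138.9 and 123.7 in the same lists. Both were among the strongest members of either replicate. RpS16, whose tail reaches a transfer RNA bound to the ribosome, had 225.3, 115.0 and 113.9. RpS28b had 189.6, 108.3 and 85.0. RpS12, a sensor of ribosomal protein dosage in fly cell competition, had 153.1, 103.5 and 62.5. The zinc-binding protein gene RpS29 had 150.0, 68.3 and 83.2. RpS12 stood higher in the ranking of replicate 1 (1233 of 4249) than in that of replicate 2 (1971 of 3424), and RpS29 the other way (2247 and 1208).

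The remaining bound head genes had signals from 90.6 at RpS15 to 140.1 at RpS19a. They included RpS18 at 136.5, RpS27A, which encodes a fusion of ubiquitin with the ribosomal protein, at 134.5, RpS5a at 128.5, RpS10b at 122.5 and RpS28a at 109.9. Of the 6 head genes without a main-list peak, RpS3 lacks a paralogue among the members. Its protein lines the entry of the messenger RNA channel. The best ranked region of RpS3 had a signal of 29.8, with 13.1 in replicate 1 and 15.5 in replicate 2, among the lowest of the family.

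The body and platform accounted for the other 19 genes, 14 of them with a main-list peak and 10 also in both replicates' lists. The shares of all protein-coding genes are again 21.6% and 11.4%. RpS27 had 365.9 in the main list, 187.5 in replicate 1 and 172.3 in replicate 2, the top value of the family in all 3 lists. RpS21 had 205.9, 111.1 and 96.5. RpS4, also of the body, had 197.2, 100.3 and 106.8. RpS7 had 147.3, 83.9 and 58.4. These 4 genes passed the threshold in each replicate, with RpS7 the weakest of them in every list.

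Other bound body genes ran from 72.0 at RpS24 to 145.9 at RpS3A, the member on chromosome 4. Between them stood RpS15Aa (141.5), RpS14b (129.4), the decoding-centre gene RpS23 (124.6), RpS26, whose protein lies at the messenger RNA exit (116.5), RpS2 (96.8), RpS13 (96.7) and RpS9 (94.9). RpS2 and RpS9 proteins bear on translational accuracy. The 5 body genes without a main-list peak included RpS6, RpS14a, RpS15Ab and RpS30. RpS6 encodes the phosphorylated substrate of S6 kinase. Its best region had a signal of 64.8, with 30.4 in replicate 1 and 43.5 in replicate 2. RpS30, made as a fusion with a ubiquitin-like protein, had 61.2, 24.6 and 39.6. In percentiles among all protein-coding genes RpS6 stood at 71.6 in replicate 1 and 82.7 in replicate 2, and RpS30 at 63.3 and 79.9, so both ranked higher in replicate 2.

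The threshold separated genes of similar signal. The lists were cut at an irreproducible discovery rate (IDR, the estimated chance that a peak does not repeat between the sets compared) of 0.01, which is a score of 830. RpS24 stood just inside with a score of 887 and a −log10 IDR of 2.14. RpS30 was nearest outside with a score of 721 and a −log10 IDR of 1.74, followed by RpS14a with 678 and 1.64. The signal of RpS24, 72.0, was likewise just above the 64.8 of RpS6.

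Most peaks were called in both replicates. In replicate 1's own thresholded list 22 of 38 genes had a promoter peak (57.9%, against 16.7% of all protein-coding genes), and in that of replicate 2 it was 24 (63.2%, against 14.2%). The lists of both replicates held 21 of the genes, against 11.4% of all protein-coding genes (1589). RpS13 was called in replicate 1 alone, RpS10b, RpS28a and RpS2 in replicate 2 alone, and RpS9 and RpS24 in neither. None of the 11 genes outside the main list was called in either replicate (0 of 11). The conservative list held 26 of the 38, lacking RpS24, against 19.3% of all protein-coding genes.

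The 6 genes not called in both replicates still had ranked regions in each. RpS10b had a signal of 45.3 in replicate 1, where it missed the threshold, and 71.5 in replicate 2. RpS2 had 58.1 in replicate 1 with an IDR of 0.333, and 47.2 in replicate 2 with an IDR of 0.00683. RpS2 therefore met the threshold in replicate 2 alone. RpS13 had 58.0 in replicate 1 and 44.1 in replicate 2, and RpS9 had 33.7 and 47.2.

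Without the threshold, nearly every member had some region. In the ranked lists 37 of 38 genes had a promoter summit for both replicates together, 37 in replicate 1 and all 38 in replicate 2. The backgrounds were 75.5%, 75.1% and 71.1% of all protein-coding genes, so presence in a ranked list says little. Ranked among all protein-coding genes by promoter signal, with genes lacking a region tied at the bottom, the median member stood at percentile 88.8 for both replicates, 86.7 in replicate 1 and 88.9 in replicate 2. The 11 genes outside the main list had median percentiles of 54.2 and 71.2 in replicates 1 and 2.

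**Figure D2:**
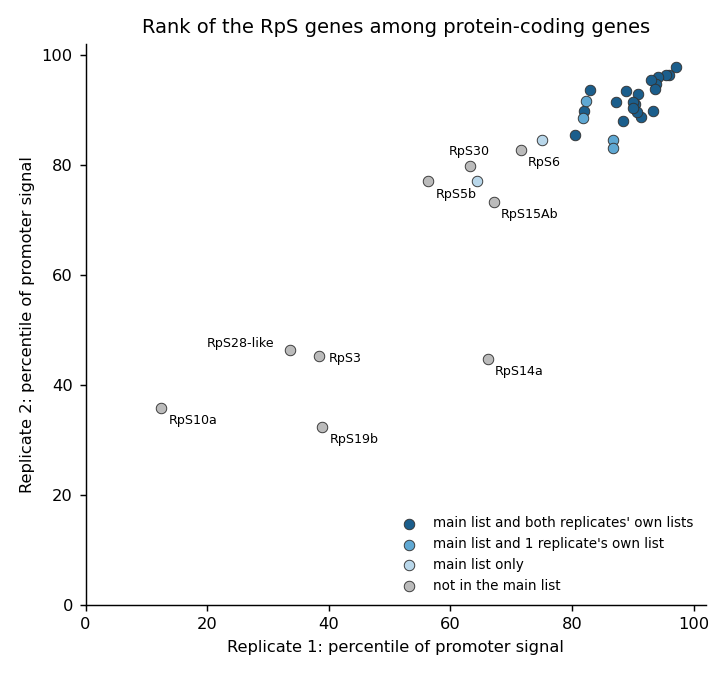
Percentile of each gene's promoter signal among all protein-coding genes in the ranked list of replicate 1 (x axis) and of replicate 2 (y axis), with 1 point for each of 35 small-subunit genes and shades for the lists that hold its peak. Genes outside the main list are named. The bound genes crowd into the upper right corner, and RpS10a, which had no region in replicate 1, sits lowest on the x axis at 12.5.

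Summits lay close to the start of transcription. The median summit of the 27 bound genes was 9 bp upstream of the nearest TSS of its gene (median position -9 bp, quartiles -35.5 and 18.5). Over all bound protein-coding genes the median was -118 bp, with quartiles of -203 and -17. A summit within 50 bp of a TSS was found in 18 of 27 members (66.7%) and in 16.5% of bound genes (497 of 3019). Summits upstream of the TSS numbered 16 of 27 (59.3%), against 77.6% of bound genes. RpL summits had a median of -24.5 bp and those of the mitochondrial small-subunit genes a median of -146 bp, with none of the latter within 50 bp (0 of 10).

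Position varied among the members and between the replicates. The summit of RpS29 lay 2 bp downstream of a TSS, that of RpS7 at -2 bp and that of RpS16 at -4 bp. RpS20 (-157 bp) and RpS27A (-103 bp) were among those with the most upstream summits. At the other end were RpS15 (108 bp), RpS13 (142 bp), RpS24 (182 bp) and RpS28a (496 bp). The median was -17.5 bp in the list of replicate 1 and -4 bp in that of replicate 2. RpS7 kept its place at -1 bp in both replicates, whereas RpS12 moved from -43 to 32 bp and RpS3A from -60 to 28 bp.

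**Figure D3:**
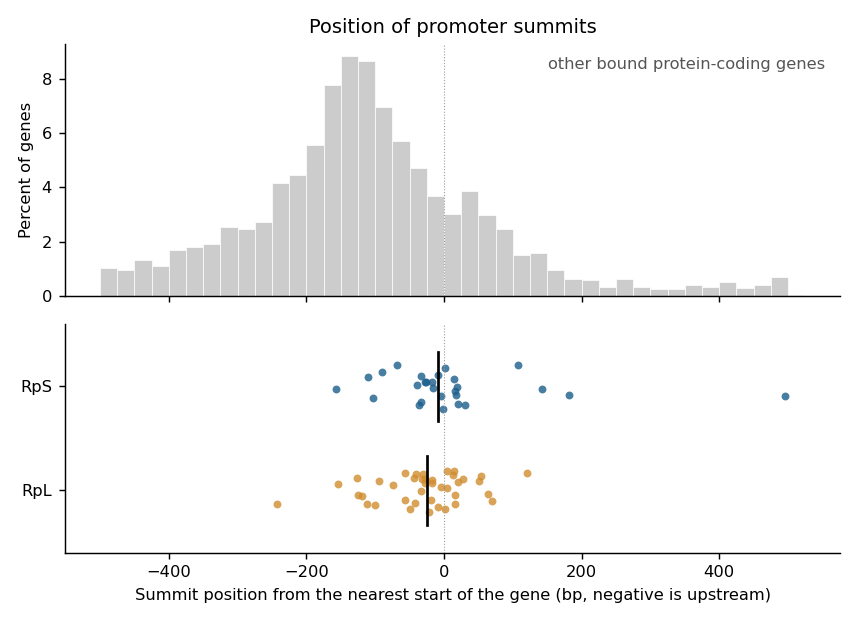
Position of main-list summits from the nearest TSS of the gene in bp, negative being upstream, as the percent of the other bound protein-coding genes per bin (top) and as 1 point per RpS or RpL gene with a black line at the median (bottom). Vertical scatter of the points carries no value. The RpS and RpL points gather around 0, with medians of -9 and -24.5 bp, whereas the bars peak upstream.

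The number of annotated starts went with both the presence and the position of a peak. Among the 19 members with 1 TSS, 47.4% were bound, against 15.9% of all protein-coding genes with 1 TSS (1635 of 10269). Among the 19 members with more than 1 TSS, 94.7% were bound, against 37.4% (1384 of 3699). Members exceeded the background in both classes. A gene with several starts also has more chances of a start near a summit. In the 9 bound members with 1 TSS the median position was -28 bp and 3 lay within 50 bp, against -128 bp and 12.8% of 1635 bound genes with 1 TSS. Measured to the canonical start alone, the members' median was -25 bp and that of all bound genes -116 bp. The part of the annotation in the peaks' place was not tested further.

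Several of these promoters face another gene. The summit lay within 500 bp of the start of another protein-coding gene in 11 of 27 members (40.7%), against 49.5% of all bound genes. Within 250 bp it was 5 of 27 (18.5%), against 40.5%. Within 500 bp the neighbour was on the opposite strand in 9 and on the same strand in 2. The small-subunit gene was the nearest to its summit in 25 of 27 (92.6%), which includes the 16 without such a neighbour within 500 bp. Counted in the same way, a bound gene was the nearest to its summit in 72.5% of cases. At the strongest peaks the neighbours were Nup37, encoding a nuclear pore protein, 158 bp from the RpS27 summit, CG4820 at 180 bp from that of RpS25 and CG17271 at 176 bp from that of RpS20. The summits of RpS25 and RpS20 lay between the starts of both genes and cannot be given to either. That of RpS27 lay 14 bp downstream of the RpS27 start in the main list and in replicate 2. In replicate 1 it lay upstream at -10 bp, so its side of the start differed between the replicates.

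Both exceptions to nearness have neighbours on the same strand. RpS27A shares its annotated start with Ip259, so the summit was 103 bp from each. The peak counted for RpS28a lay at chr3R:30021954-30022349, and the gene spans chr3R:30022345-30022648 on the minus strand. Its summit at 30022152 was beyond the end of RpS28a and 69 bp from the start of Mgat2, an N-glycan processing enzyme gene. Without this gene 26 of 37 members had a promoter peak.

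Small nucleolar RNA (snoRNA) genes lie in the introns of many ribosomal protein genes and guide ribosomal RNA modification. Annotated snoRNA genes, 41 in all, lay inside 12 members, of which 10 were bound (83.3%, against 58.3% of the 84 protein-coding genes with a snoRNA gene inside). RpS5a held 14 of them, RpS7 held 7 and RpS16 held 5. The unbound hosts included RpS6. Bound members came from every arm that holds one. They were 7 of 12 on 3R (against 21.3% of all genes there), 6 of 8 on X (19.6%), 5 of 6 on 2L (21.4%), 5 of 7 on 2R (21.8%), 3 of 4 on 3L (24.2%) and the 1 member on chromosome 4 (7.5%).

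The family holds 6 pairs of paralogues, and in 5 of them exactly 1 gene had a main-list peak. The bound gene was RpS5a, RpS10b, RpS14b, RpS15Aa or RpS19a, and the gene without was RpS5b, RpS10a, RpS14a, RpS15Ab or RpS19b. Both genes of the pair RpS28b and RpS28a counted as bound, the latter through the peak next to Mgat2. In Drosophila, RpS5b is known for expression in the ovary and RpS10a and RpS19b for expression in the germ line. Coding sequences were identical at 98.2% of aligned positions for RpS15Aa and RpS15Ab, 97.8% for RpS14b and RpS14a, 77.7% for RpS5a and RpS5b, 76.9% for RpS28b and RpS28a, 74.0% for RpS10b and RpS10a, and 66.7% for RpS19a and RpS19b.

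Each pair is named with the gene of the stronger or only main-list peak first. That gene also ranked higher in each replicate, but the main list was drawn from both replicates, so this is not independent support. RpS5a had ranked signals of 65.2 in replicate 1 and 56.5 in replicate 2, against 21.2 and 35.7 for RpS5b. RpS14b had 46.8 and 84.3, against 26.2 and 15.3 for RpS14a. In percentiles among all protein-coding genes RpS14b stood at 82.9 and 93.7 and RpS14a at 66.1 and 44.7, so this pair was farther apart in replicate 2. RpS15Aa had 76.2 and 68.1, against 26.9 and 32.0 for RpS15Ab. RpS19a had 78.7 and 61.7, against 13.3 and 7.36 for RpS19b, the lowest signal of any member in replicate 2. RpS10a had no ranked region in replicate 1 and a signal of 10.4 in replicate 2. RpS28b had 108.3 and 85.0, against 44.5 and 57.8 for RpS28a. RpS28-like, which has no assigned partner here, had 10.7 and 16.0. Signals of both replicates together were 49.3 for RpS5b, 39.0 for RpS14a, 62.7 for RpS15Ab, 15.1 for RpS19b and 25.8 for RpS28-like.

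**Figure D4:**
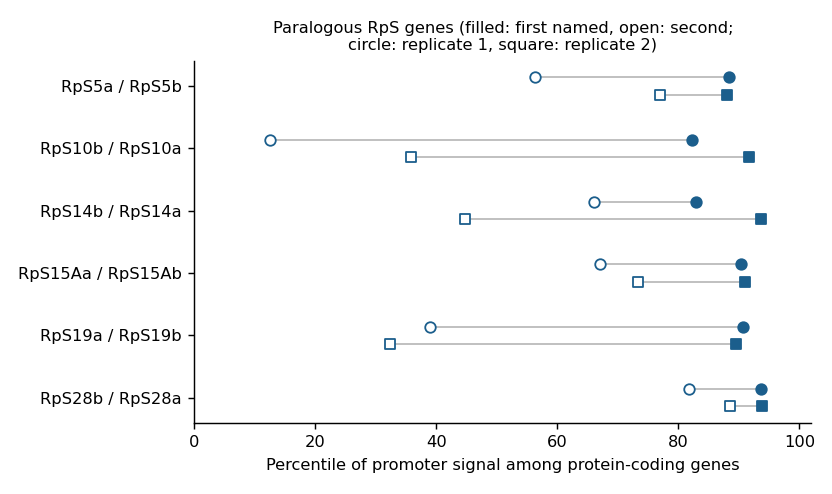
Percentile of promoter signal among all protein-coding genes for both genes of each paralogous pair, with filled symbols for the first-named gene and open symbols for the second, circles for replicate 1 and squares for replicate 2. Each line joins the genes of a pair within a replicate. The first-named gene is the one with the stronger or only main-list peak, so the direction partly follows from the naming. The filled symbol lies to the right in all 12 lines, and the lines of RpS28b and RpS28a are short.

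Reads from near-identical copies can be hard to place, and how such reads were treated is not given in the sources used here. Within 250 bp of the starts, no pair shared a run of 36 bases (0 shared runs in each of the 6 pairs). The starts of 2 pairs are shown because 1 pair encodes nearly the same sequence from adjacent genes and the other has the TCT letters in both genes. Each sequence holds 40 bases before the canonical TSS and 20 from it, from RefSeq's Release 6 genome on the coding strand. Capitals mark CTTTC or CTTTT lying wholly within the window of 10 bases before the TSS and 10 from it, the start being base 1.
RpS14b (chrX:7934858-7934917, plus strand): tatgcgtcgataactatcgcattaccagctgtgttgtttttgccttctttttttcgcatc
RpS14a (chrX:7933702-7933761, plus strand): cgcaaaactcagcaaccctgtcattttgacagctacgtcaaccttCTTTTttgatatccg
RpS5a (chrX:17148245-17148304, minus strand): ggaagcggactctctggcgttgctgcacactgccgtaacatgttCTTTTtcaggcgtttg
RpS5b (chr3R:14901544-14901603, minus strand): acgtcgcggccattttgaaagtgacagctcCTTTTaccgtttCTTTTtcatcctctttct
RpS14a, without a main-list peak, had the letters at 6 to 10 and RpS14b, with a peak, at 7 to 11, which is 1 base past the window, so this pair does not differ in the letters beyond the edge of the window. The main-list peak of RpS14b spanned chrX:7934610-7935005, so it began inside the end of RpS14a (chrX:7933742-7934677). Of the other pairs, RpS15Aa and RpS19a had the letters in the window and their unbound partners RpS15Ab and RpS19b did not, and neither gene of the RpS10 or the RpS28 pair had them there.

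Over the family, the TCT initiator letters were common. They were found in the same window around the canonical TSS in 18 of 38 genes (47.4%), in 44.4% of RpL genes, in 7.7% of mitochondrial small-subunit genes and in 5.2% of 13967 promoters with a canonical start. Among bound members it was 14 of 27 (51.9%) and among unbound members 4 of 11 (36.4%). When any start of a gene could carry the letters, they were found in 24 of 38 members (63.2%) and in 7.4% of all protein-coding genes. With the window 1 base longer downstream they were found in 19 members, against 5.5% of promoters.

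Other promoter words were searched on both strands from 250 bases before to 50 after the canonical start. TATCGATA, the site of the replication-related factor Dref, was in 13 of 38 promoters (34.2%), against 8.9% of all. GGTATTT, a core promoter word known as motif 6, was in 9 (23.7%), against 9.5%. GGTCACAC, the site of M1BP, a pausing factor found at ribosomal protein promoters, was in 4 (10.5%), against 7.5%. TATAAAA was in 10 (26.3%), against 23.8%, and GAGAG, read by GAGA factor, in 4 (10.5%), against 30.2%. The family was thus above all promoters for the Dref site and motif 6, near them for the M1BP and TATA words, and below them for GAGAG. RpL promoters were also above all promoters for the Dref site (27.8%) and motif 6 (24.1%) and below them for GAGAG (22.2%). They had the M1BP word in 16.7% and TATAAAA in 24.1%.

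Words tied to bZIP proteins were searched in the same way. ACGT, the core of many bZIP sites, was in 21 of 38 promoters (55.3%), against 48.2% of all. CCACG was in 12 (31.6%), against 23.2%. RpL promoters held ACGT in 64.8% and CCACG in 27.8%. The E-box CACGTG, which contains ACGT, was in 0 of 38, against 4.3% of all and 20.4% of RpL promoters. TGACGTGG, called the ATF6 core here, contains ACGT and was in 0 of 38, against 0.4%. A count of 0 says only that these letters were not in this window.

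**Figure D5:**
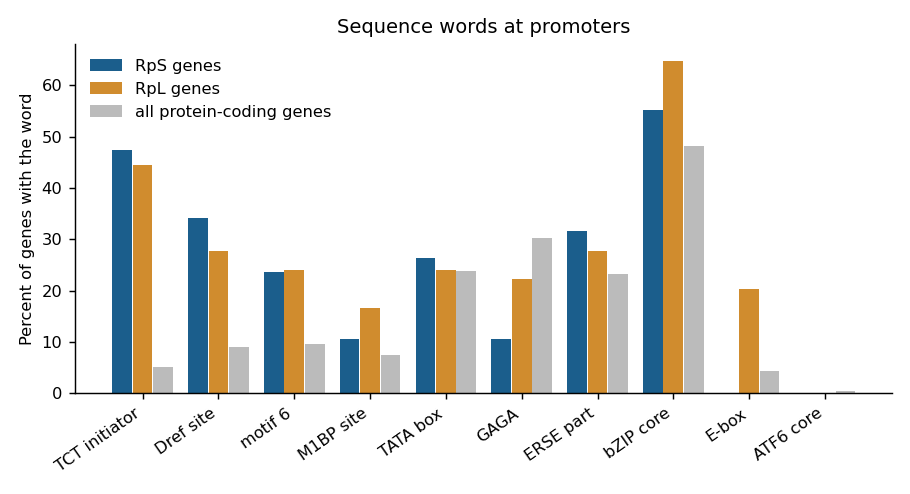
Percent of genes with each sequence word in the promoter, for the 38 RpS genes, the 54 RpL genes and all protein-coding genes. ERSE part stands for CCACG, bZIP core for ACGT, ATF6 core for TGACGTGG and motif 6 for GGTATTT. The blue and orange bars of the TCT initiator reach 47.4% and 44.4% and the grey bar 5.2%, and there is no blue bar for the E-box or the ATF6 core.

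Within 50 bp of the 27 summits, CCACG was in 7 (25.9%), against 6.9% of 2268 promoter summits, and ACGT in 8 (29.6%), against 18.7%. The CCACG letters were at RpS21, RpS4, RpS29, RpS7, RpS3A, RpS27A and RpS24. CACGTG was at RpS4 and RpS24 (7.4%, against 1.1%), and TGACGTGG at none (0 of 27, against 0.1%). The Dref site and motif 6 were each at 4 summits (14.8%), against 2.6% and 3.1%, and GAGAG was at 1 (3.7%, against 11.7%). RpL summits were also above all promoter summits for CCACG (17.5%), ACGT (30%), CACGTG (7.5%), the Dref site (20%) and motif 6 (15%). They were likewise below for GAGAG (2.5%). Summit windows of the members were richer in GC, at 47.3% ± 8.5 (SD over 27 summits), than all promoter summits, at 37.4% ± 11.5 (2268 summits). RpL summits stood between them, at 43.5% ± 8.4 (40 summits). Words rich in G and C can follow base composition, and this was not tested.

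Of 23 other genes of the small subunit, its assembly and its control, 11 had a promoter peak (47.8%, against 21.6% of all protein-coding genes). In the list of replicate 1 it was 7 of 23 (against 16.7% of all protein-coding genes), and in that of replicate 2 it was 6 (against 14.2%). NHP2, a protein of the snoRNA particles that guide pseudouridylation, had a signal of 247.1, and the transcription factor gene Dref had 217.6. Rack1, whose protein sits on the head of the subunit, had 160.7, with 86.7 in replicate 1 and 81.1 in replicate 2. The small-subunit gene sta had 135.4, with 69.3 and 80.8. Their summits lay 43 and 16 bp downstream of the TSS, and both signals were within the range of the RpS genes.

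The other named genes of that list were weaker. M1BP had 109.0, RIOK1, a kinase of late subunit maturation, 108.3, Nopp140, a nucleolar phosphoprotein, 105.1, and Trf2, which acts at TCT promoters, 102.1. S6k, the kinase of RpS6, had 73.8 and Nop60B, the pseudouridine synthase, 71.1, and neither was called in a replicate's own list. Fib, which encodes fibrillarin, was the weakest bound gene at 66.4. The 12 without a main-list peak were bys, RIOK2, kz, nop5, Nop56, hoip, wcd, nclb, Mat89Ba, Non3, Tbp and Myc.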

How the data were processed

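ChIP-seq peak lists of 2 replicates were used. Per the text files deposited beside them, the lists came from dm6 alignments and a control; the aligner and caller are not given in the sources at hand. Chromatin was sonicated, per the labels, to sizes from 200 to 800 (no unit stated). The signal and IDR scores were set by the authors and used as deposited, as was the −log10 of the IDR in the 4 deposited ranked lists. A further 8 columns of signals of unnamed inputs were not used. Depth is unknown, so no floor can be given.

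A promoter peak had its summit within 500 bp of any TSS of Ensembl release 115 (BDGP6 version 54), and the highest signal was taken. Last peaks and genes ended within the arms of RefSeq's Release 6 genome. Signals were ranked within a list. Replicates share 1 group, so nothing was tested between groups, and no p-values were computed. Members and lists were chosen with earlier results of these data known. By rule, joint and replicate signals are given for the 10 members of highest signal, the paralogous pairs and the members without a peak. At most 10 bound genes of the other list were to be named, and Fib was added after its value was seen. Placement in head or body is textbook knowledge and was assigned after values were seen, as was the search for shared runs. Coding sequences of paralogues were aligned as nucleotides, in place of the planned protein identity. Printed sequences were shortened at the 3′ end where over 30 bases are annotated as untranslated. Values of 3 members are counted in totals and otherwise not reported here. Gene assignment was tested on simulated peaks. Windows, lists and word widths were varied. Tools were Biopython 1.88, SciPy 1.17.1, numpy 2.4.6, matplotlib 3.10.9, pandas 2.3.3 and Python 3.11.15.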

Additional observations from a re-analysis of the deposited data

How the results depend on the processing

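Of the recomputed values, 44 stayed within the limits set for them and 10 did not. The count of bound small-subunit genes was 26 with a window of 250 bp (against 17.7% of all protein-coding genes), which lost RpS28a, and 29 with 1000 bp (25.4%), which gained RpS19b (-838 bp, signal 86.8) among others. It was 25 where the region had to overlap a start (14.4%), 22 in the upper 50% of the main list by signal (13.6%) and 21 for main-list peaks overlapping both replicates' lists (11.2%). The median percentile among promoter-bound genes, 56.5 in the main list, was 52.2 in the conservative list, 58.7 with a window of 250 bp and from 41.9 to 44.8 with either replicate left out, so members did not stand above other bound genes in every list. The median position was -25 bp to the canonical start. The M1BP word was at 0 summits within 25 bp against 1 within 50 bp. The TCT letters were in 24 members with any start against 18 with the canonical start. Neighbours fell from 11 to 5 at 250 bp, and from 49.5% to 40.5% of all bound genes. The other list had 7 bound genes without replicate 2 (against 16.7% of all protein-coding genes) and 6 without replicate 1 (14.2%). In the main list it had 11 (21.6%). The cause of these shifts was not tested. Unknown depth limits every call near the threshold. No paired analysis was possible because there was 1 group.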
